A study of Homo sapiens with 9 samples.

Results

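MIR183, MIR96 and MIR182 form a cluster of 3 miRNA genes on chromosome 7, and each of their precursors can give a mature miRNA from its 5′ arm (5p) and from its 3′ arm (3p). The members were taken as the rows of the count table whose mature name is hsa-miR-183-5p, hsa-miR-183-3p, hsa-miR-182-5p, hsa-miR-182-3p, hsa-miR-96-5p or hsa-miR-96-3p, written below without the species prefix. All 6 are present, each on 1 row of the 2883 in the table. All 6 had counts above 0 in some library, as did 1214 rows in all, and 5 of them were among the 701 rows that passed the filter on low counts and were tested. miR-182-3p did not pass.

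The 9 small RNA libraries came from the human Jurkat line, clone E6-1, T lymphoblasts that grow as an established culture. Cells labelled as control had not been activated (0 h, n = 3). The other cells were collected 5 h (n = 3) or 12 h (n = 3) after the start of activation on plates coated with antibody to CD3 (10 µg/mL), which carries the signal of the T cell receptor into the cell, and with antibody to CD28, a receptor for costimulation, in the medium (5 µg/mL). All groups are the same clonal leukaemic line, and the only unactivated cells are those of 0 h, so activation and time in culture cannot be told apart.

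Precursors of a cluster like this are cut from a shared primary transcript by Drosha and then by Dicer, and usually 1 arm of each is kept in Argonaute while the other is degraded. The retained strand pairs with messenger RNAs mainly through its seed, bases 2 to 8. The cluster is best known for its high levels in photoreceptors, hair cells and other sensory cells. In T cells, miR-182 is known as a miRNA induced through interleukin-2 and STAT5 that acts on FOXO1, a transcription factor of quiescent T cells, and it is reported to help activated helper T cells to divide.

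On GRCh38, MIR183 lies at chr7:129774905-129775014, MIR96 at chr7:129774692-129774769 and MIR182 at chr7:129770383-129770492, all on the minus strand, so MIR183 comes first in the direction of transcription. In GENCODE 29 the 3 genes span 4632 bp, with 135 bp between MIR183 and MIR96 and 4199 bp between MIR96 and MIR182, and no other annotated gene overlaps this span. The nearest protein-coding genes are NRF1, which ends 13301 bp from MIR182 on the opposite strand, and UBE2H, which ends 55718 bp from MIR183.

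The mature sequences from RefSeq (GRCh38.p14) are shown because the 5p arms are near copies of each other at their 5′ ends while the 3p arms are not. Capitals mark the seed, and 6 of 6 names were matched.

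miR-183-5p: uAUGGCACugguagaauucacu
miR-182-5p: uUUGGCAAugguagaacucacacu
miR-96-5p: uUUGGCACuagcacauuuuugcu
miR-183-3p: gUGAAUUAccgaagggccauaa
miR-96-3p: aAUCAUGUgcagugccaauaug
miR-182-3p: uGGUUCUAgacuugccaacua

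No seed is shared between members. Counted from the 5′ end, the first 8 bases of miR-182-5p and miR-96-5p differ only by A8C, those of miR-183-5p and miR-96-5p only by A2U, and those of miR-183-5p and miR-182-5p by A2U and C8A. Over the whole shared length, seed included, the order of likeness changes. Here miR-183-5p and miR-182-5p have the same base at 18 of 22 positions (81.8%). The values are 13 of 22 (59.1%) for miR-183-5p and miR-96-5p and 12 of 23 (52.2%) for miR-182-5p and miR-96-5p. In the RefSeq table, miR-96-5p is the only member with a seed found in a miRNA outside the cluster, miR-1271-5p, which is encoded on chromosome 5 and differs from it in the first 8 bases by U1C.

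miR-1271-5p: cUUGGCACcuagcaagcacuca

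The 3′ UTR of FOXO1 shows how the bases that separate these seeds act on matching. In its longest annotated 3′ UTR (3382 bases, chromosome 13, minus strand), the DNA letters GTGCCAA, which match the miR-96-5p seed, occur 2 times and GTGCCAT, which match the miR-183-5p seed, occur 2 times. Among the 992 3′ UTRs whose length is within 10% of this one, 18.1% hold GTGCCAA and 23.3% hold GTGCCAT. The letters TTGCCAA, which match bases 2 to 8 of miR-182-5p, occur 0 times (27.6% of those 3′ UTRs hold them). TGCCAA, which matches bases 2 to 7 of both miR-182-5p and miR-96-5p, occurs 2 times and is held by 64.4%. Both occurrences lie within the GTGCCAA matches and are followed by an A. TGCCAAA, which matches the first 7 bases of both miR-182-5p and miR-96-5p, is thus present at both places. The share of 3′ UTRs that hold TGCCAAA was not counted. Only the transcript strand was searched, and these matches describe letters and not measured binding.

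chr13:40558777-40558797: cattacaatgaaGTGCCAAac
chr13:40556902-40556922: taactgaacttgGTGCCAAag

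Total counts ranged from 6631839 to 16207031 per library, and the shallowest were replicate 3 of 12 h (6631839) and replicate 3 of 0 h (7083813). Levels are in CPM, counts per 1000000 after TMM scaling, which is a relative scale: less RNA of a kind per cell and fewer cells that hold it cannot be told apart. The blood lineage miRNAs miR-142-3p and miR-181a-5p averaged 7764 ± 293 and 29960 ± 2689 CPM at 0 h. miR-142-5p and miR-150-5p, of the same lineage, averaged 1467 ± 92.5 and 271 ± 9.71 CPM there. The myeloid miR-223-3p averaged 120, 133 and 149 CPM at 0, 5 and 12 h. The erythroid miR-451a averaged 6.11, 6.24 and 4.72 CPM, with counts in every library, and the erythroid miR-144-3p had 2 counts in all. miR-205-5p, miR-124-3p, miR-1-3p and miR-133a-3p, which mark epithelium, neurons and muscle, had 0 counts in all 9 libraries. The epithelial miR-200c-3p and miR-141-3p had counts in all 9, with 93.3, 113 and 103 CPM and 56.1, 54.6 and 77.3 CPM on average at 0, 5 and 12 h. The liver miRNA miR-122-5p had 1.40 ± 1.21 CPM at 0 h, 23.0 ± 37.9 CPM at 5 h and 7.94 ± 1.71 CPM at 12 h (edgeR adjusted p = 0.253 at 5 h), and its part in the results was not tested.

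In the controls the 6 rows of the cluster summed to 3448 ± 87.4 CPM (SD, n = 3). The sum was 3582 ± 230.5 CPM after 5 h and 3568 ± 129 CPM after 12 h, and on this scale the libraries of the 3 times overlapped. As a share of the unscaled counts, 5 h and 12 h overlapped each other, but neither overlapped the controls. With each mature miRNA counted once in the total, the cluster held 0.519% to 0.537% in the controls, 0.543% to 0.605% at 5 h and 0.552% to 0.562% at 12 h. The means were 0.528% ± 0.00896, 0.567% ± 0.0331 and 0.559% ± 0.00577. Of all counts in the table the share was 0.328% to 0.347%, 0.350% to 0.390% and 0.353% to 0.363%, so that every activated library was above every control. How many rows of the table separate in this way on unscaled counts was not counted, so the lack of overlap is a description. Whether the sum separates the controls from the activated libraries thus depends on the scaling. miR-183-5p and miR-182-5p together held nearly all of it: miR-183-5p made up 61.6%, 55.3% and 58.6% of the cluster's counts at 0, 5 and 12 h, and miR-182-5p 34.4%, 41.0% and 37.4%.

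miR-183-5p, the 5p arm of the precursor that is transcribed first, was the most abundant member. It had 2031, 1967 and 2377 CPM in replicates 1, 2 and 3 of 0 h, 2142, 2007 and 1802 CPM at 5 h, and 1875, 1995 and 2418 CPM at 12 h. The groups overlapped, and the highest value at 0 h and at 12 h came from the shallowest library of each. Its mean of 2068 CPM over the 9 libraries placed it at position 35 of 1098 distinct mature miRNAs with counts.

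miR-182-5p, the arm reported to act in activated T cells, had 1211, 1287 and 1054 CPM at 0 h, 1524, 1503 and 1373 CPM at 5 h, and 1393, 1484 and 1117 CPM at 12 h. All 3 libraries at 5 h lay above all 3 at 0 h, while the 12 h values overlapped both. Here the shallowest library was the lowest of its group at 0 h and at 12 h. The arm was at position 43 over all libraries.

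miR-96-5p, whose seed differs from that of miR-182-5p at its last base, was far less abundant. It had 77.1, 99.5 and 58.5 CPM at 0 h, 77.7, 69.2 and 95.7 CPM at 5 h, and 94.4, 92.8 and 95.3 CPM at 12 h. The 12 h values lay within the range of the 0 h values and spread less (SD 1.24 CPM, against 20.5 at 0 h and 13.6 at 5 h). Its position was 127 of 1098.

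miR-183-3p, the less abundant arm of its precursor, had 48.5, 75.6 and 50.4 CPM at 0 h, 37.1, 57.0 and 58.4 CPM at 5 h, and 60.3, 40.2 and 39.7 CPM at 12 h. These values overlapped at all 3 times. As groups they also overlapped those of miR-96-5p at 0 h, whereas at 5 h and 12 h every miR-96-5p value was above every miR-183-3p value. Within every single library, at 0 h too, miR-96-5p was above miR-183-3p. All libraries had more miR-183-5p than miR-182-5p and more miR-182-5p than either of these.

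miR-96-3p and miR-182-3p were near the detection limit, where 3 counts are worth 0.176 CPM (deepest library) to 0.471 CPM (shallowest). miR-96-3p had 46, 16 and 18 counts in replicates 1, 2 and 3 of 0 h (2.96, 1.22 and 2.74 CPM), 8, 0 and 5 counts at 5 h (0.747, 0 and 0.293 CPM) and 0 counts in all 3 libraries at 12 h. Every 0 h library was thus above every library at 5 h and at 12 h. miR-182-3p had 7 counts in replicate 2 of 0 h, 6 counts in replicate 2 of 5 h and 0 counts in the other 7 libraries.

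**Figure D1:**
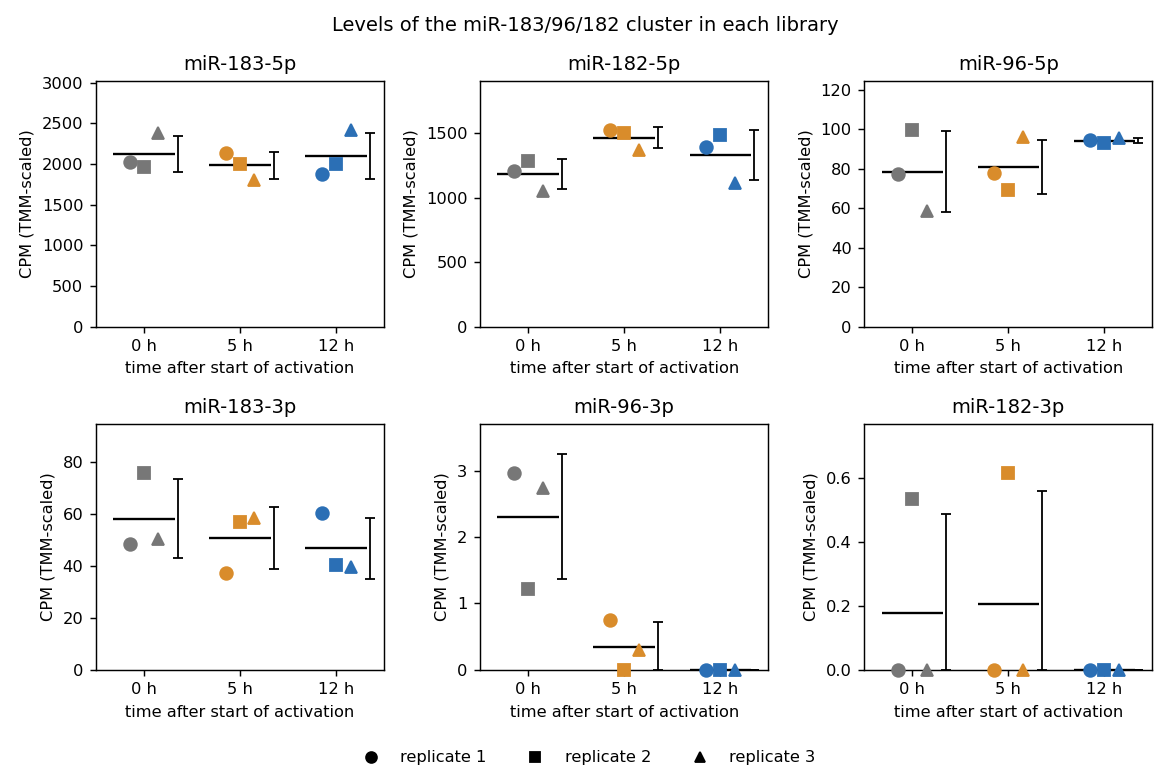
Level of each arm of the cluster in CPM (vertical axis, linear from 0) at 0, 5 and 12 h (horizontal axis); each symbol is 1 library, the horizontal line is the mean and the bar beside it the SD (n = 3, drawn no lower than 0). miR-182-5p at 5 h (1373 to 1524 CPM) lies above its 0 h values (1054 to 1287 CPM), and miR-96-3p has 1.22 to 2.96 CPM at 0 h and 0 counts at 12 h.

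At 5 h, 0 of the 5 tested members passed an adjusted p of 0.05 in edgeR's quasi-likelihood test, against 1.57% of the 701 rows (11 rows). miR-182-5p had the smallest p of the members: it averaged 1184 ± 119 CPM at 0 h and 1466 ± 81.6 CPM at 5 h, a log2 change of 0.31 (SE 0.13, 95% interval 0.04 to 0.57, unadjusted p = 0.0246, edgeR adjusted p = 0.694). It was higher in 3 of 3 libraries at 5 h than in any control, as were 6.85% of all tested rows. The adjusted p of miR-182-5p ranged from 0.358 to 1 over the 21 alternative settings, and its log2 change from 0.23 to 0.36.

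The values of the other well-counted arms at 5 h overlapped those of the controls. miR-183-5p had 2125 ± 221 and 1983 ± 171 CPM at 0 h and 5 h, a log2 change of -0.10 (SE 0.12, 95% interval -0.36 to 0.16, edgeR adjusted p = 0.996). miR-96-5p had 78.4 ± 20.5 and 80.9 ± 13.6 CPM, a log2 change of 0.04 (SE 0.21, 95% interval -0.40 to 0.49, adjusted p = 0.996). miR-183-3p had 58.2 ± 15.1 and 50.8 ± 11.9 CPM, a log2 change of -0.19 (SE 0.26, 95% interval -0.73 to 0.34, adjusted p = 0.996). Over all 701 rows the median log2 change was 0.03.

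miR-96-3p averaged 2.31 ± 0.945 CPM at 0 h and 0.347 ± 0.376 CPM at 5 h, and did not pass (unadjusted p = 0.243, edgeR adjusted p = 0.996). At 5 h, 3.99% of tested rows lay below the controls without overlap, as miR-96-3p did. It passed the filter on low counts only through the 0 h libraries, where it was highest.

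At 12 h, again 0 of 5 tested members passed in edgeR, against 1.43% of all rows (10 rows: 0.999% higher and 0.428% lower). No member lay above the controls without overlap, as 7.13% of rows did. miR-182-5p had 1331 ± 191 CPM, 1.12-fold its 0 h level (log2 change 0.17, SE 0.13, 95% interval -0.09 to 0.43, edgeR adjusted p = 0.892). miR-183-5p had 2096 ± 285 CPM (log2 change -0.02, SE 0.12, 95% interval -0.28 to 0.24, adjusted p = 0.992). miR-96-5p had 94.2 ± 1.24 CPM (log2 change 0.26, SE 0.21, 95% interval -0.18 to 0.71, adjusted p = 0.922). miR-183-3p had 46.7 ± 11.7 CPM (log2 change -0.31, SE 0.26, 95% interval -0.86 to 0.23, adjusted p = 0.924).

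For miR-96-3p at 12 h, 3 counts over the group (0.0949 CPM) were taken as the limit. The 12 h level was then at least 24.3-fold below the 0 h mean. This bound takes the 0 h mean as exact and leaves out the spread between libraries. With that spread, the edgeR 95% interval for miR-96-3p was 6.81e-05-fold to 0.318-fold of the 0 h level. Because the 12 h counts were all 0, the ends of this interval depend on how the fit handles 0. The counts themselves resolve no drop beyond the bound. The log2 change was -7.75 in edgeR, -7.01 with DESeq2 and -5.43 with limma-voom. The interval rests on the same 0 h counts, so it too is a description. At the 0 h mean of miR-96-3p, the 12 h libraries would have held 30.9, 27.4 and 14.7 counts in replicates 1, 2 and 3, in place of 0. The bound was 14.0-fold without replicate 1 and 15.2-fold without replicate 2 of 12 h. In edgeR the unadjusted p was 0.0160 and the adjusted p 0.556. With DESeq2 the adjusted p was 0.0440, and over the 19 alternatives it ranged from 0.0440 to 0.827. Since the arm was among the tested rows only through its 0 h counts, these p-values are given as a description and support no change. Of all tested rows, 4.99% lay below the controls without overlap at 12 h. Among 158 tested rows that averaged 1 to 5 CPM and had counts in every library at 0 h, 7 had 0 counts in all 3 libraries at 12 h, miR-96-3p being the highest of these at 0 h. That set was chosen by its 0 h counts. In the reverse direction, chosen by 12 h counts in the same way, 3 of 141 rows had 0 counts in all 3 libraries at 0 h, and the difference between these counts was not tested. Apart from miR-96-3p, the other 6 of the 7 rows with 0 counts at 12 h summed to 35 to 78 counts at 0 h. At 5 h they summed to 0 to 35 counts. The nearest, miR-454-5p, named after its values were seen, had 78, 15 and 0 counts summed over 0, 5 and 12 h, against 80, 13 and 0 for miR-96-3p.

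Between 12 h and 5 h, 0 of 5 members passed in edgeR, with 0 at an unadjusted p under 0.05, against 0.571% of all rows past the threshold (4 rows) and 6.13% at an unadjusted p under 0.05. No member lay below its 5 h values without overlap, as 7.85% of rows did, or above them (4.99%). The log2 changes were -0.14 for miR-182-5p (95% interval -0.40 to 0.13), 0.08 for miR-183-5p (-0.18 to 0.34), 0.22 for miR-96-5p (-0.22 to 0.66) and -0.12 for miR-183-3p (-0.66 to 0.42). Tested over all times at once, 0 members and 1.71% of all rows passed. Its smallest unadjusted p among the members were 0.0389 for miR-96-3p and 0.0746 for miR-182-5p (edgeR adjusted p = 0.857 for both). At an unadjusted p under 0.05, edgeR gave 1 of 5 members at 5 h, miR-182-5p, and 1 at 12 h, miR-96-3p, where 5.99% and 7.28% of the 701 rows were under it. DESeq2 gave the same members at these times and also miR-96-3p between 12 h and 5 h. limma-voom gave 2 at 5 h, miR-182-5p and miR-96-3p, and 1 at 12 h, miR-96-3p. These tools were run on the same counts. miR-96-3p was among the tested members only through its 0 h counts, so its part in these tallies is a description and supports no change.

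**Figure D2:**
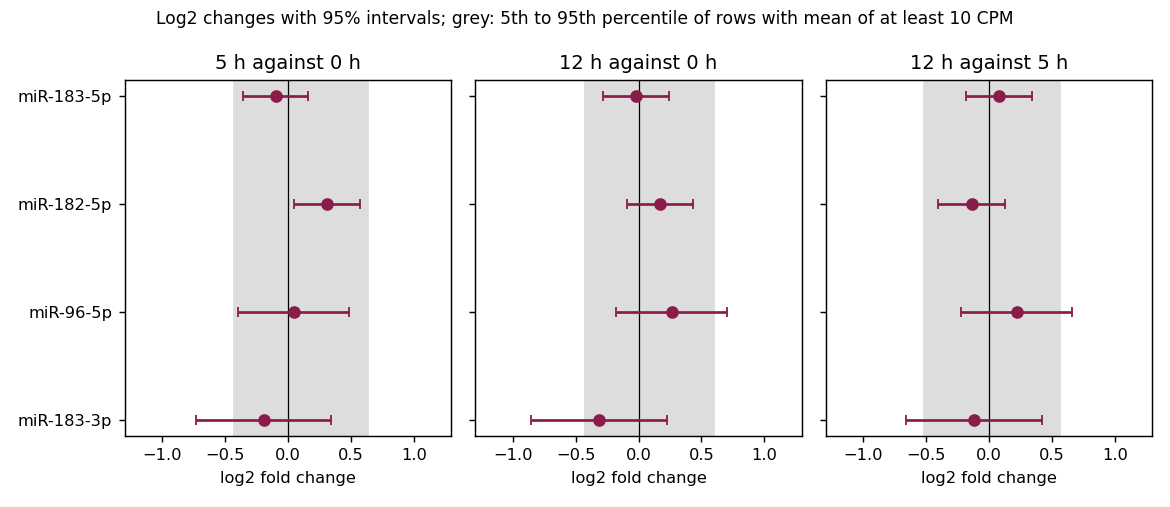
Log2 fold change (horizontal axis) of the 4 well-counted arms in the 3 comparisons, with 95% intervals from the edgeR fit over 9 libraries; the grey band spans the 5th to the 95th percentile of the 283 tested rows that averaged 10 CPM or more. All 12 estimates lie within the band, and the interval of miR-182-5p at 5 h (0.04 to 0.57) is the only one that does not reach 0.

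The ratio of 2 members within a library does not depend on scaling, and it was compared for the 3 pairs of 5p arms. For miR-182-5p to miR-183-5p, the 2 abundant arms at opposite ends of the cluster, the ratio was 0.596, 0.654 and 0.443 in replicates 1, 2 and 3 of 0 h. The 5 h ratios were 0.712, 0.749 and 0.762, and those of 12 h were 0.743, 0.744 and 0.462. All 5 h ratios were above all 0 h ratios, and at 12 h replicates 1 and 2 were at the 5 h level while replicate 3 was at the level of replicate 3 of 0 h. The mean log2 ratio was higher at 5 h than at 0 h by 0.41, or 1.33-fold (exact two-sided permutation p = 0.1, the smallest that 3 against 3 libraries can give, and 0.643 adjusted over 9 tests). At 12 h it was higher than at 0 h by 0.19 (exact permutation p = 0.5, adjusted 0.643).

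The libraries with the lowest ratio, replicate 3 of 0 h and of 12 h, were also the 2 shallowest, and the part of depth in this was not tested. Without them, an alternative chosen after the data were seen, the ratio was 0.596 and 0.654 at 0 h, 0.712 to 0.762 at 5 h and 0.743 and 0.744 at 12 h. The log2 differences from 0 h were then 0.25 at 5 h and 0.25 at 12 h. Without replicate 3 of 0 h alone they were 0.25 and 0.02, and without replicate 3 of 12 h alone the difference at 12 h was 0.42. In the fit over all rows without the 2 libraries, miR-182-5p had a log2 change of 0.23 at 5 h (edgeR adjusted p = 0.621) and 0.19 at 12 h (0.630).

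**Figure D3:**
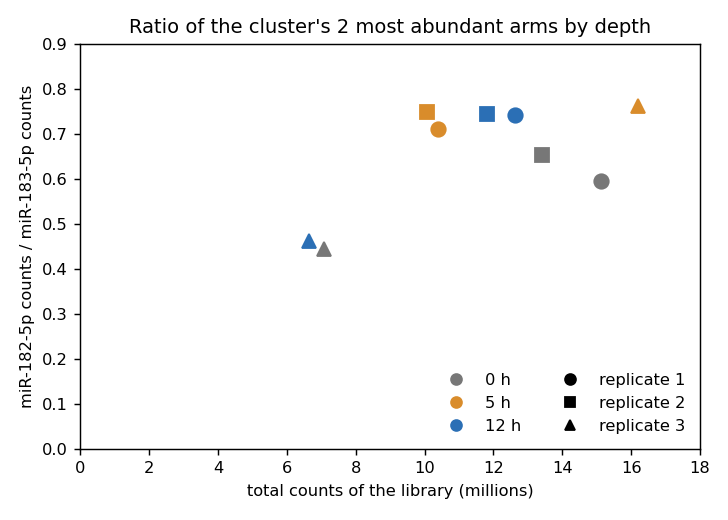
Ratio of miR-182-5p to miR-183-5p counts (vertical axis, linear from 0) against the total counts of the library in units of 1000000 (horizontal axis); each symbol is 1 library, coloured by time and shaped by replicate number. The 2 shallowest libraries have ratios of 0.443 and 0.462, and the other 7 lie between 0.596 and 0.762.

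Ratios to miR-96-5p overlapped between all times. Counts of miR-182-5p were 11.7 to 21.7 times and those of miR-183-5p 18.8 to 40.6 times those of miR-96-5p, with the highest miR-183-5p to miR-96-5p ratio in replicate 3 of 0 h. The log2 difference between 5 h and 0 h was 0.25 for miR-182-5p to miR-96-5p (exact permutation p = 0.4) and -0.16 for miR-183-5p to miR-96-5p (exact permutation p = 0.7). At 12 h against 0 h they were -0.13 (exact permutation p = 0.6) and -0.32 (exact permutation p = 0.5).

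The 3 precursors lie on 1 strand within a few kilobases, and the levels of their 5p arms showed no high positive correlation from library to library. The correlation of log2 CPM over the 9 libraries was -0.65 between miR-183-5p and miR-182-5p, -0.47 between miR-183-5p and miR-96-5p and 0.26 between miR-182-5p and miR-96-5p. Without the 2 shallowest libraries the values over 7 were 0.24, -0.62 and -0.26. These are descriptions over few libraries whose values share scaling and depth. No member passed a test between times, so they cannot show whether the arms would change together. The 5 rows outside the cluster whose log2 CPM was most like that of miR-183-5p, of 279 that averaged 10 CPM or more, were miR-421 (r = 0.918), miR-130b-3p (0.917), miR-181d-5p (0.903), miR-3200-5p (0.901) and miR-501-3p (0.894). miR-183-5p and 4 of these 5 had their 2 highest values in the 2 shallowest libraries, and miR-181d-5p had 1 of its 2 highest there.

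The arms of each precursor were compared as the share of counts from the 3p arm. For mir-183 the 3p share was 2.33%, 3.70% and 2.08% in the replicates of 0 h, 1.71%, 2.76% and 3.14% at 5 h and 3.12%, 1.98% and 1.62% at 12 h. The groups overlapped, and the log2 ratio of 5p to 3p differed from 0 h by 0.09 at 5 h (SE 0.42, limma adjusted p = 0.993) and 0.29 at 12 h (SE 0.42, adjusted p = 0.914). For mir-182 the 3p arm held 7 of 42578 counts at 0 h, 6 of 54375 at 5 h and 0 of 43358 at 12 h, which allows a share of up to 0.00692%.

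For mir-96, the groups did not overlap between 0 h and the later times. How many of all precursors show no overlap in this share was not counted. miR-96-3p also passed the filter on low counts only through the 0 h libraries, so the lack of overlap is a description. The mir-96 3p share was 3.70%, 1.22% and 4.48% at 0 h, 0.951%, 0% and 0.305% at 5 h and 0% in all libraries at 12 h. Summed over replicates, 80 of 2964 counts were from the 3p arm at 0 h (2.70%, exact 95% Clopper-Pearson interval 2.15% to 3.35%) and 13 of 3152 at 5 h (0.412%, 0.220% to 0.704%). At 12 h there were 0 of 2971, with an exact upper bound of 0.124%, and 3 counts in place of 0 would be 0.101%. No molecular identifiers are recorded, so reads may be copies of 1 molecule and the intervals hold for counting error alone; the spread between the 0 h replicates was wider than the interval.

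The hairpins show where these arms lie, with the 5p and then the 3p arm in capitals (RefSeq, GRCh38.p14, minus strand).

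MIR96: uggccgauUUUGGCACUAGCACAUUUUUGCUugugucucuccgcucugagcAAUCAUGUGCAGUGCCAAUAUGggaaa
MIR182: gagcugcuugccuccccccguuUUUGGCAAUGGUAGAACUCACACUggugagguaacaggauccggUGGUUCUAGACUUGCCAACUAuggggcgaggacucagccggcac

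On log2 CPM with a prior count of 2, the ratio of miR-96-5p to miR-96-3p averaged 5.04, 7.58 and 9.09 at 0, 5 and 12 h. It exceeded the control ratio by 2.54 at 5 h (SE 0.67, limma unadjusted p = 0.00573, adjusted p = 0.236) and by 4.06 at 12 h (SE 0.67, unadjusted p = 0.000368, adjusted p = 0.0607). The values depend on the prior count, because the 3p arm was at 0 in most activated libraries, and were 3.35 and 5.97 with a prior count of 0.5. mir-96 is among the 165 precursors with both arms tested only because miR-96-3p passed the filter through its 0 h counts, so its p-values describe the values and support no change. In limma 0 of the 165 passed (0% at each time), while 14 had an unadjusted p under 0.05 at 12 h and 11 at 5 h. The adjusted p at 12 h was under 0.05 without replicate 2 of 0 h (limma adjusted p = 0.0421), without replicate 1 of 5 h (0.0296) and without replicate 2 of 5 h (0.0165). Over the other libraries left out in turn its adjusted p was 0.120 to 0.358.

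**Figure D4:**
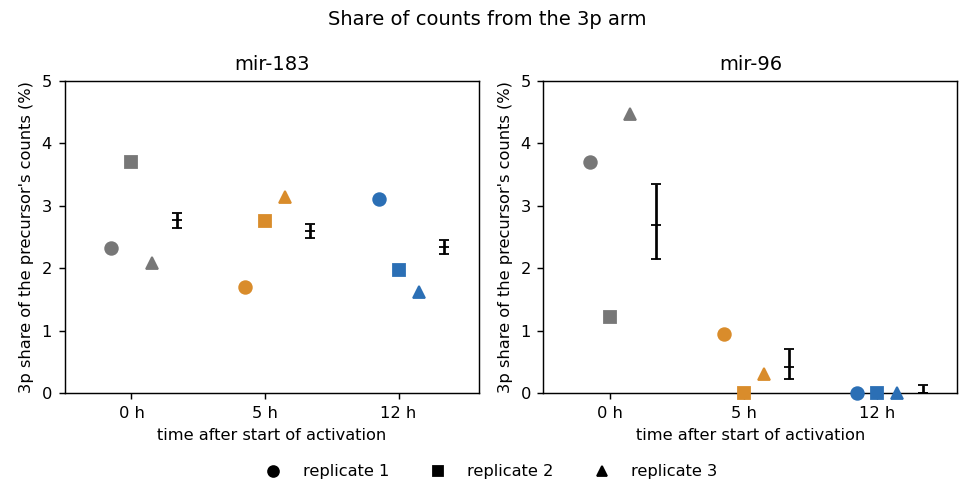
Share of each precursor's counts that came from the 3p arm, in percent (vertical axis, from 0), at 0, 5 and 12 h (horizontal axis) for mir-183 and mir-96; symbols are libraries, and the dash with a bar is the share over the summed counts with its exact 95% interval for counting error. The mir-183 shares overlap at all times (1.62% to 3.70%), while those of mir-96 are 1.22% to 4.48% at 0 h and 0% at 12 h.

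miR-1271-5p, which carries the seed of miR-96-5p, averaged 1.77 ± 0.775 CPM in the controls, then 0.777 ± 1.20 and 0.924 ± 0.870 CPM, with 0 counts in 2 of 9 libraries. It did not pass (edgeR adjusted p = 0.996 at 5 h and 0.991 at 12 h). It had 115 counts over the 9 libraries.

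The miRNAs encoded within 5 Mb of the cluster were compared as its genomic surroundings. Of 11 mature names in RefSeq in that window, 7 had counts and 5 were tested, and 0 passed in edgeR in any comparison (against 1.57%, 1.43% and 0.571% of all rows). At an unadjusted p under 0.05 there was 1 at 5 h and 0 at 12 h, against 5.99% and 7.28% of all rows. miR-29a-3p, a miRNA known to repress collagen and interferon gamma transcripts, is encoded 1101734 bp away on the same strand, and had 820 ± 132, 887 ± 40.2 and 821 ± 144 CPM at 0, 5 and 12 h. miR-29b-3p, which has a further precursor on another chromosome, had 238 ± 50.8, 246 ± 37.7 and 224 ± 26.8 CPM. Their opposite arms were low, miR-29a-5p at 1.57 ± 1.69, 5.75 ± 3.42 and 5.33 ± 1.55 CPM and miR-29b-1-5p at 0.535 ± 0.927, 6.78 ± 4.68 and 1.36 ± 0.748 CPM. miR-335-5p, encoded within MEST, had 2.30 ± 0.778, 0.880 ± 0.911 and 2.06 ± 0.559 CPM.

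Other miRNAs reported to act on FOXO1 were taken as a list of 10. Of these, 7 had counts and were tested, and 0 passed in either direction at 5 h or 12 h in edgeR, against 1.57% and 1.43% of all rows. At an unadjusted p under 0.05 there were 2 and 0 of the 7, against 5.99% and 7.28% of all rows. The median log2 change of the 7 was 0.14 at 5 h and 0.01 at 12 h, against 0.03 and 0.01 over all tested rows. miR-27a-3p was at the level of miR-183-5p, with 2182 ± 62.0, 2202 ± 288 and 2421 ± 72.2 CPM. miR-186-5p had 676 ± 101, 780 ± 16.8 and 648 ± 126 CPM, and miR-27b-3p 224 ± 36.0, 247 ± 25.7 and 227 ± 35.3 CPM. miR-9-5p had 144 ± 16.4, 192 ± 6.70 and 145 ± 39.2 CPM (edgeR adjusted p = 0.695 at 5 h). miR-135b-5p, miR-370-3p and miR-411-5p had 0 counts in all 9 libraries.

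Because the cluster is abundant in sensory and epithelial cells, 11 miRNAs of those tissues were examined beside it. 3 of them, miR-205-5p, miR-124-3p and miR-211-5p, had 0 counts in all libraries, and the list summed to 149 to 218 CPM at 0 h, 188 to 208 CPM at 5 h and 191 to 234 CPM at 12 h. Most of this was miR-200c-3p (93.3 ± 30.9 CPM at 0 h), miR-141-3p (56.1 ± 4.75 CPM), which is encoded beside it, and miR-203a-3p (29.8 ± 9.11 CPM). In edgeR 0 of the 4 tested members passed at either time, against 1.57% and 1.43% of all rows. At an unadjusted p under 0.05 there were 0 at 5 h and 1 at 12 h, against 5.99% and 7.28%. The summed list was well below miR-183-5p and miR-182-5p in each group, and its part in their levels was not tested.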

How the data were processed

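Small RNA libraries were made with RealSeq kits from total RNA extracted with a column kit, per the labels' protocols. The authors deposited raw counts per pair of precursor and mature miRNA (2883 rows) and log2 normalised counts for 430 of these rows, 4 of them of the cluster; the log2 table was used only as an alternative. The submitters' processing notes name GRCh38.p13 and DESeq2; aligner and counting tool: not given in the sources used here. Repeated precursor rows enter the totals.

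Rows were filtered with filterByExpr (minimum count 10, minimum total 15), scaled by TMM and fitted with edgeR 4.0.16 (R 4.3.3) in 1 quasi-likelihood model with 1 mean per time over all 9 libraries. P-values were adjusted by Benjamini-Hochberg over the 701 tested rows, with a threshold of 0.05. Intervals use the test's SE and degrees of freedom. Arm ratios were fitted with limma 3.58.1, and ratios between members were compared by exact two-sided permutation. Where a group held 0 counts, 3 counts were the limit. Fits were tested on simulated data. Figures were drawn with matplotlib 3.10.9.

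The series' design text calls the replicates biological, without saying whether cultures were separate, so p-values measure the spread between these samples. No batch is named. Alternatives were other scalings, filters and tools (DESeq2 1.42.0, limma-voom), 1 row per mature miRNA, a fit of 2 groups at a time, a block for replicate number, and libraries left out. The naming rule took all members, miRNAs with a member's seed, tested miRNAs within 5 Mb, the 4 most abundant of the FOXO1 list and the 5 rows most like the most abundant member. Members and lists were chosen with earlier results of these data known. Genes are from GENCODE 29 and sequences from RefSeq; FOXO1 is from GENCODE 29 transcripts.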

Additional observations from a re-analysis of the deposited data

How the results depend on the processing

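With 3 libraries a time, the 95% intervals against 0 h reached from 0.779-fold to 1.12-fold for miR-183-5p at 5 h and from 0.883-fold to 1.63-fold for miR-96-5p at 12 h, and miR-96-3p rests on 80, 13 and 0 counts. In the tests of single members, 1 call was made over all alternatives that the reported edgeR fit did not make: miR-96-3p at 12 h with DESeq2 (1 member past the threshold in place of 0). Of the other values, 415 for single members and 277 for counts, ratios and sums were classed as unchanged. For tests this meant the same direction and side of the threshold, and for ratios between members the same direction. For counts of rows it meant a near count, and for levels and sums a mean within the SD. Among single members 13 values moved and 13 turned in sign. Among counts, ratios and sums 15 moved, 9 turned in sign and 3 newly passed the threshold. The causes of the differences below were not tested.

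Over all rows, 17 passed at 5 h without a filter on low counts and 5 in the deposited log2 table (11 in the reported fit). At 12 h against 0 h, 6 passed in the log2 table and 6 when only those groups were fitted (10 reported). Between 12 h and 5 h, 12 passed without the filter (4 reported), and any difference gave 21 without it and 7 in the log2 table (12 reported). With libraries left out in turn, the count was 3 to 10 between 12 h and 5 h (10 without replicate 1 of 12 h) and 7 to 15 for any difference (7 without replicate 2 of 12 h).

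Same-numbered libraries of different times correlated at -0.179 to 0.255 in their deviations from the group means, and 4 of 9 correlated best with their own number, so the numbers were not taken as pairs. With the replicate number as a block, 13 rows passed at 5 h, 11 at 12 h, 11 between 12 h and 5 h and 21 for any difference, none of them members.

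Small log2 changes of members turned in sign. miR-96-5p at 5 h was -0.020 with at least 10 CPM in 3 libraries, -0.12 without the 2 shallowest libraries and -0.13 to 0.23 with libraries left out in turn. miR-183-3p at 5 h was -0.34 to 0.014 with libraries left out. miR-183-5p at 12 h was 0.025 with library totals, 0.14 with upper quartile factors and -0.17 to 0.074 with libraries left out, and between 12 h and 5 h it was -0.046 without the 2 shallowest and -0.047 to 0.15 with libraries left out. With upper quartile factors, miR-182-5p and miR-183-3p between 12 h and 5 h were 0.025 and 0.040.

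With libraries left out in turn, the mir-96 arm ratio at 12 h was 3.77 to 4.58 and that of mir-183 was -0.17 to 0.28 at 5 h and -0.016 to 0.47 between 12 h and 5 h. With both arms at 10 CPM or more, mir-96 gave no value. The log2 ratio of miR-182-5p to miR-183-5p between 12 h and 5 h was -0.34 to 0.0060, and 0.0060 without the 2 shallowest. That of miR-183-5p to miR-96-5p at 5 h was -0.41 to 0.11, and 0.11 without the 2 shallowest, where miR-182-5p to miR-96-5p at 12 h was 0.11. With each mature miRNA counted once in the totals, the cluster summed to 5275, 5669 and 5592 CPM at 0, 5 and 12 h.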
